A study of Mus musculus with 12 samples.

Results

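The Kruppel-like factors are a family of transcription factors, and 9 of their genes (Klf2, Klf3, Klf4, Klf5, Klf6, Klf9, Klf10, Klf13 and Klf15) were followed across the estrous cycle of the mouse uterus. They were chosen as members of the family, with earlier results of these data known. All 9 were found among the 35896 genes to which transcripts of the deposited tables could be matched. The libraries came from the whole uterus of wild-type Swiss Webster females 8 to 12 weeks old, an outbred stock, and nothing in the labels gives the mice a drug, hormone or surgery. Each library was labelled proestrus, estrus, metestrus or diestrus, with 3 libraries in each of the 4 stages and 12 in all. RNA was read by 3′ TagSeq, which sequences fragments near the 3′ end of polyadenylated transcripts, so that the number of reads of a gene depends little on its length. Libraries are named here by stage and by the replicate number of their label. The labels do not state that each library is a separate animal, so the p-values measure the spread between these libraries.

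Kruppel-like factors bind GC-rich DNA and CACCC boxes through a conserved zinc finger domain at the carboxyl end, and differ in the activating or repressing regions before it. Some act mainly as repressors by recruiting corepressors, and others activate or repress depending on the gene. In the uterus, members of the family are known for work alongside the estrogen and progesterone receptors, in the growth arrest or proliferation of the epithelium, and in endothelial cells. Estrogen peaks in proestrus, ovulation falls near estrus, and progesterone from the corpora lutea is higher in metestrus and diestrus.

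The promoters of Klf4, Klf6 and Klf9 are shown because these 3 genes had the largest called fold differences between proestrus and estrus and took different courses over the cycle. The 250 bases before the RefSeq start are given from assembly GRCm38.p6, 5′ to 3′ on the strand of the gene. Capitals mark every CACCC and every GC box (GGGCGG), in either orientation, so that GGGTG and CCGCCC are capitalized as well.
Klf4 promoter, chr4:55532476-55532725, minus strand: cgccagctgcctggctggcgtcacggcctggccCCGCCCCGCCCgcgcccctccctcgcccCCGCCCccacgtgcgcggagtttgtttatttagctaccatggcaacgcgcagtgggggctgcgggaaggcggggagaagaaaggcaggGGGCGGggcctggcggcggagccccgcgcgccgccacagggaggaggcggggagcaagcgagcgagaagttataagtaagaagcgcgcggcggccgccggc
Klf6 promoter, chr13:5861239-5861488, plus strand: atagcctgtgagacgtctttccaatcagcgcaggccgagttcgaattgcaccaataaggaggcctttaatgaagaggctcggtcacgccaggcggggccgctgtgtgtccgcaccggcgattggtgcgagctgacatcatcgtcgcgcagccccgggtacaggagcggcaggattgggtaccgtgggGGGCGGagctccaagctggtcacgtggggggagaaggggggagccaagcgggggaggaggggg
Klf9 promoter, chr19:23140976-23141225, plus strand: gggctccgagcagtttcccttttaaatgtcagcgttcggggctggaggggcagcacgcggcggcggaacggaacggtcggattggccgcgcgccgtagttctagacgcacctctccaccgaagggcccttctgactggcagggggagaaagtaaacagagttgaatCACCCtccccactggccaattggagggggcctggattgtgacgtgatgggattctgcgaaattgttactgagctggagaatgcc
The Klf4 window held 4 GC boxes and no CACCC, with 74.0% G and C. The Klf6 window held 1 GC box and no CACCC, and the Klf9 window held 1 CACCC and no GC box. RefSeq windows were found for 7 of the 9 genes. A CACCC was found in 5 of these 7, compared with 52.0% of 32817 windows of the same length. The Klf3 window held 5 CACCC and 6 GC boxes, and these 2 motifs shared 1 base there. A GC box was found in 32.7% of all windows. The palindromic estrogen response element (GGTCA and TGACC, 3 bases apart) occurred in 0.0640% of all windows, the element of the other steroid receptors (GNACA and TGTNC, 3 bases apart) in 0.387% and TATAAA in 12.4%. These last 3 were found in none of the 7 windows, on either strand. These matches are a description of letters in a short window.

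Across the 4 stages, 5 of the 9 genes differed at an adjusted p under 0.05 in the edgeR quasi-likelihood F test. This share, 55.6%, stands beside 23.2% of the 12052 genes tested. In a fit limited to genes with a mean of at least 50 counts, 1844 of 5481 were called. As the 9 were chosen with earlier results known, these shares are a description and no test of the family. The 5 were Klf3, Klf4, Klf5, Klf6 and Klf9. Of these, Klf3, Klf5, Klf6 and Klf9 (4 of 9) had their highest mean in estrus, as did 10.7% of all genes tested, called and highest there. Klf4 had its highest mean in proestrus, as did 5.32% of all genes. Klf2, Klf10, Klf13 and Klf15 were not called. Levels are CPM, each gene's counts relative to the library total after TMM scaling, and fold changes are on the log2 scale with their standard error (SE).

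**Figure D1:**
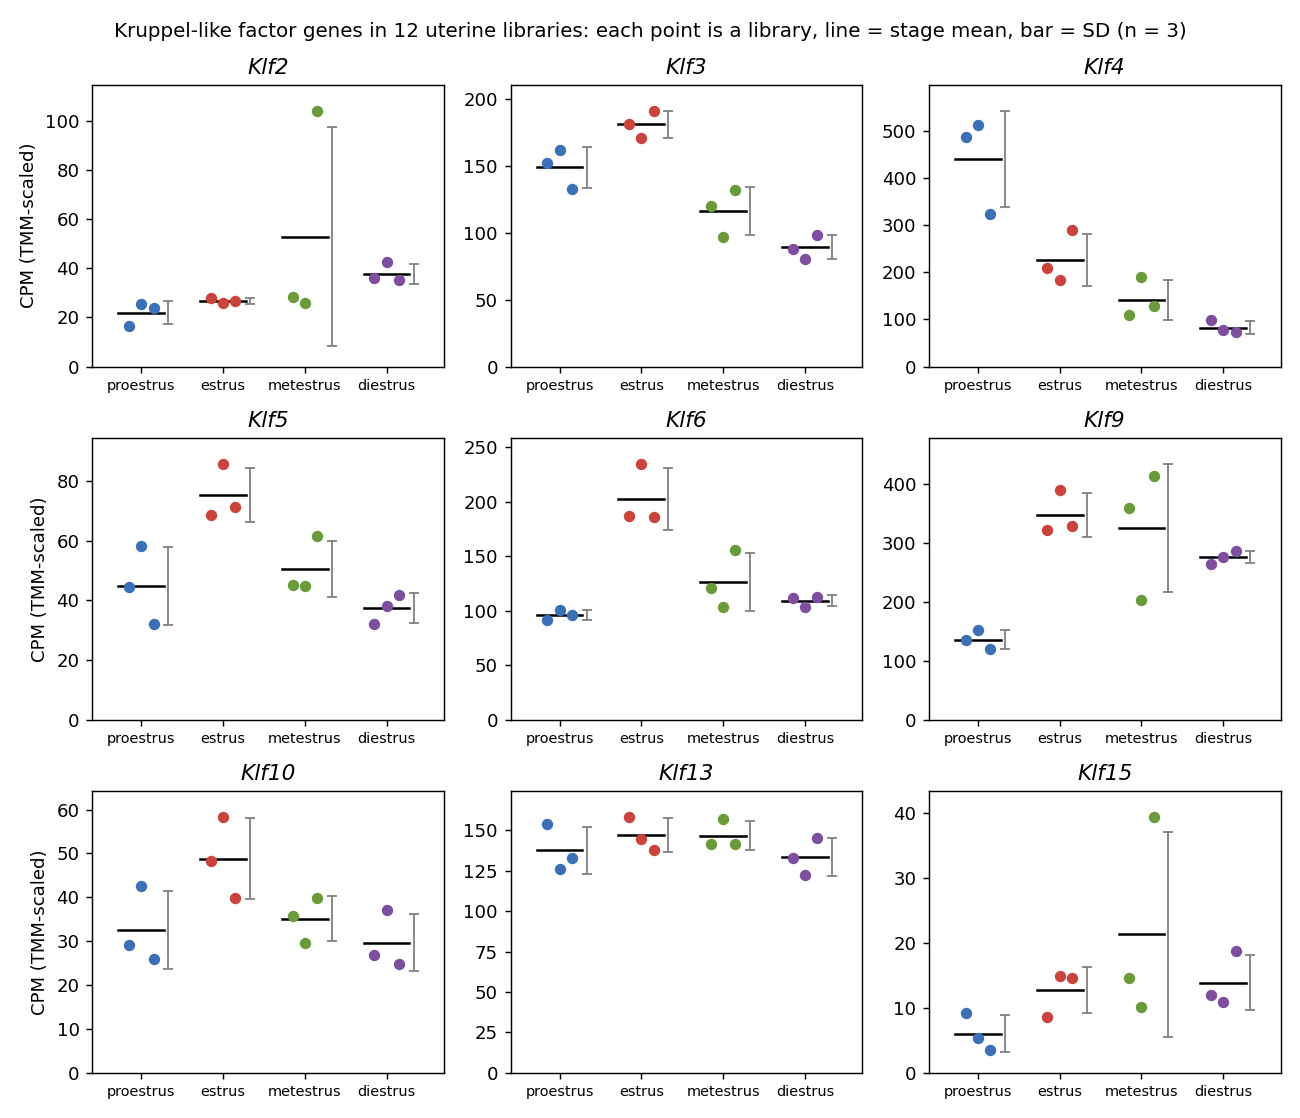
CPM of the 9 Kruppel-like factor genes in the 12 libraries, grouped by stage on the x axis, with a separate linear y axis from 0 for each gene. Points are libraries, horizontal lines are stage means and grey bars are SD (n = 3). Klf4 stepped down from proestrus to diestrus, Klf9 was low in the 3 proestrus libraries alone, and Klf2 and Klf15 each had a single high point, metestrus replicate 7.

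Klf4, known for growth arrest and barrier formation in epithelia, had the widest range over the stages of the 5 called genes. Its CPM was 488, 512 and 325 in the proestrus libraries and 208, 184 and 289 in estrus. It was 108, 190.0 and 128 in metestrus and 98.2, 76.6 and 73.6 in diestrus. Every proestrus library lay above every library of the other stages, and every diestrus library lay below them. The estrus and metestrus ranges overlapped.

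The stage means of Klf4 were 442 ± 102, 227 ± 55.3, 142 ± 42.7 and 82.8 ± 13.4 CPM from proestrus to diestrus (SD, n = 3 each). Proestrus was 5.33-fold above diestrus, a log2 difference of 2.41 ± 0.25 (edgeR adjusted p = 0.000105, stage F test adjusted p = 0.000115). Klf4 fell by 0.96 ± 0.24 on the log2 scale from proestrus to estrus (edgeR adjusted p = 0.0150). This call was lost without proestrus replicate 1, proestrus replicate 2, estrus replicate 3 or estrus replicate 4, where the adjusted p reached 0.0614. Klf4 was also lower in metestrus than in proestrus, with a log2 difference of -1.64 ± 0.24 (edgeR adjusted p = 0.00509), and lower in diestrus than in estrus, with -1.46 ± 0.25 (edgeR adjusted p = 0.00109). The steps from estrus to metestrus (-0.68 ± 0.24, edgeR adjusted p = 0.0998) and from metestrus to diestrus (-0.77 ± 0.25, edgeR adjusted p = 0.224) did not pass.

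Markers of epithelial cells also differed between stages, in more than a single direction. All 8 were called in the F test, and none was at 0. Proestrus exceeded diestrus for 6 of them, among them Epcam and Cdh1. Cldn3 and Cldn4, claudins of tight junctions, were lower in proestrus than in diestrus, with log2 differences of -0.999 ± 0.24 (edgeR adjusted p = 0.0199) and -1.66 ± 0.47 (edgeR adjusted p = 0.0443). The summed level of all 8 was 1426 to 1880 CPM in proestrus and 1566 to 1831 in estrus, and then 605 to 1110 in metestrus and 654 to 790 in diestrus. In whole uterus, fewer epithelial cells and less RNA per cell cannot be told apart. Set against this sum, Klf4 stood at 22.8 to 32.3% in proestrus and at 10.03 to 15.8% in estrus, ranges that did not overlap. It stood at 9.77 to 22.1% in metestrus and 9.31 to 15.0% in diestrus. The ranges of the sum overlapped between proestrus and estrus while those of Klf4 did not, and both the sum and Klf4 were lower in diestrus than in estrus.

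**Figure D2:**
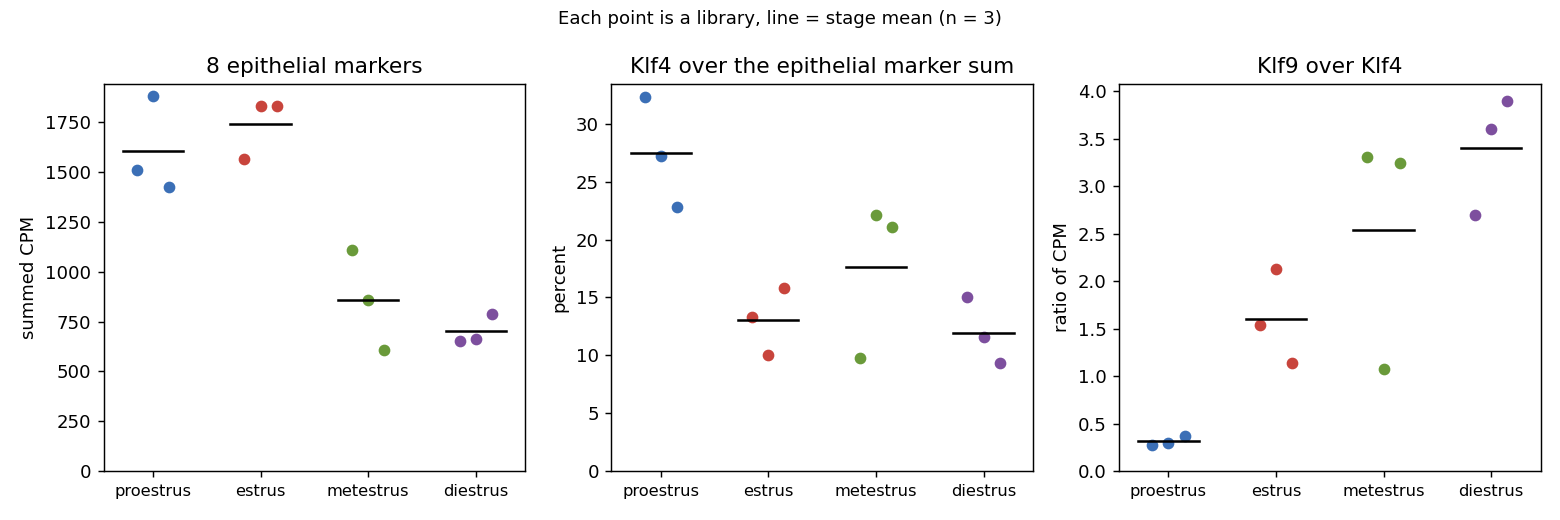
Summed CPM of 8 epithelial markers, Klf4 as a percent of that sum, and the ratio of Klf9 to Klf4 CPM, by stage. Points are libraries and lines are stage means (n = 3), on linear axes from 0. The marker sum separated proestrus and estrus from metestrus and diestrus, while Klf4 as a percent of it was highest in the 3 proestrus libraries and the Klf9 ratio was lowest in them.

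Klf5, known for the proliferation of epithelial cells, had its highest level in estrus. Its CPM was 44.5, 58.2 and 31.97 in proestrus, 68.7, 85.8 and 71.4 in estrus, 45.1, 44.8 and 61.4 in metestrus, and 31.9, 38.1 and 41.9 in diestrus. The 3 estrus libraries lay above all 9 others, whereas the proestrus range overlapped those of metestrus and diestrus. Klf5 rose by 0.75 ± 0.21 on the log2 scale from proestrus to estrus (edgeR adjusted p = 0.0253, stage F test adjusted p = 0.0128). It was lower in diestrus than in estrus, with a log2 difference of -1.01 ± 0.21 (edgeR adjusted p = 0.00379). The rise into estrus was lost without proestrus replicate 1, proestrus replicate 3, estrus replicate 4 or estrus replicate 5 (edgeR adjusted p up to 0.112), and the F test call was lost without estrus replicate 4 (adjusted p = 0.0812). As a percent of the epithelial marker sum, Klf5 was 2.24 to 3.10 in proestrus, 3.90 to 4.69 in estrus, 4.07 to 10.1 in metestrus and 4.88 to 5.74 in diestrus, so that against these markers proestrus was its lowest stage.

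Klf9, a transcription factor known as a partner of the progesterone receptor in the uterus, was lowest in proestrus. Its CPM was 135, 153 and 121 there and 322, 391 and 329.8 in estrus. It was 359, 204 and 414 in metestrus and 265, 276 and 287 in diestrus. No library outside proestrus was as low as the highest proestrus library. Within the other 3 stages the estrus range lay above that of diestrus, and metestrus overlapped both.

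Estrus exceeded proestrus 2.55-fold in mean Klf9 CPM, at 347 ± 37.7 compared with 136 ± 15.9 (SD, n = 3 each). Klf9 rose by 1.35 ± 0.21 on the log2 scale from proestrus to estrus (edgeR adjusted p = 0.00133, stage F test adjusted p = 0.00215). Metestrus was above proestrus by 1.26 ± 0.21 (edgeR adjusted p = 0.00959), and proestrus was below diestrus, with -1.02 ± 0.21 (edgeR adjusted p = 0.00817). The differences among estrus, metestrus and diestrus did not pass, with diestrus minus estrus at -0.33 ± 0.21 (edgeR adjusted p = 0.272). Without metestrus replicate 7, where Klf9 had its highest CPM, metestrus minus proestrus was 1.06 (edgeR adjusted p = 0.0245). In a fit of those 2 stages alone this difference was not called (1.28, edgeR adjusted p = 0.0654).

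Klf9 and Klf4 thus exchanged places. The ratio of Klf9 to Klf4 within a library, which does not depend on library scaling, was 0.276 to 0.372 in proestrus and 1.14 to 2.13 in estrus. It was 1.07 to 3.31 in metestrus and 2.70 to 3.90 in diestrus. Klf4 had more counts than Klf9 in the 3 proestrus libraries, and Klf9 had more in the other 9. Both are counted at the 3′ end, where read number depends little on gene length, so no division by length is made here.

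Markers of macrophages rose with Klf9 from proestrus to estrus, and differed among themselves after that. Of 7 such markers, 6 were called in the F test, and none was at 0. All 7 were called higher in estrus than in proestrus. In the other 2 contrasts that called Klf9, 3 were higher in metestrus than in proestrus and 3 lower in proestrus than in diestrus. Diestrus was lower than estrus for 2 of them, where Klf9 was not called. Their sum was 297 to 339 CPM in proestrus, 705 to 796 in estrus, 443 to 771 in metestrus and 441 to 650 in diestrus. Klf9 as a percent of this sum was 38.2 to 45.4 in proestrus, 44.0 to 49.1 in estrus, 46.0 to 62.5 in metestrus and 44.2 to 62.6 in diestrus. Against the sum of 8 stromal markers, which held 6969 to 15262 CPM, Klf9 was 0.868 to 1.11% in proestrus, 2.87 to 3.56% in estrus, 1.34 to 5.15% in metestrus and 2.15 to 3.12% in diestrus. The stromal sum was mostly Col1a1, Col1a2, Col3a1 and Dcn, and its members did not move together. From proestrus to estrus 1 of the 8 was called higher and 2 lower. Col1a1 fell by 1.07 ± 0.30 on the log2 scale (edgeR adjusted p = 0.0280), and Hoxa11 differed by -1.10 ± 0.33 (edgeR adjusted p = 0.0349). Pdgfra, a receptor of stromal fibroblasts, rose by 1.55 ± 0.15 (edgeR adjusted p = 6.74e-05), from 46.2 to 135 CPM. Like Klf9, Pdgfra was higher in metestrus and diestrus than in proestrus, and so was Hoxa11. These marker genes are named after their values were seen. Whether cell composition contributes to the Klf9 difference was not tested.

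Klf13, the member closest in kind to Klf9, had the narrowest range. Its CPM was 154, 126 and 133 in proestrus, 158, 145 and 138 in estrus, 142, 157 and 141 in metestrus, and 133, 122 and 145 in diestrus. The ranges of all 4 stages overlapped, and the highest stage mean was 1.102 times the lowest. The stage F test gave an adjusted p of 0.726, and the 6 log2 differences between stages lay between -0.14 and 0.09, each with an SE of 0.13. The annotation places Gm27252 and E030018B13Rik on the strand opposite Klf13, and whether the counting used the strand is not given in the sources used here.

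Klf15, known as a target of glucocorticoid and progesterone receptors with roles in metabolism, was the least abundant, with 7 to 66 counts per library. Its CPM was 9.13, 5.39 and 3.55 in proestrus, 8.66, 14.9 and 14.7 in estrus, 14.5, 10.1 and 39.3 in metestrus, and 12.0, 10.9 and 18.7 in diestrus. Proestrus lay below metestrus and diestrus without overlap, and metestrus replicate 7 stood above all other libraries. The stage F test did not call Klf15 (edgeR adjusted p = 0.0793). Metestrus minus proestrus was 1.83 ± 0.50 on the log2 scale (edgeR adjusted p = 0.0579). Without metestrus replicate 7 it was 1.06 (edgeR adjusted p = 0.231). With all libraries DESeq2 called this difference (1.84, adjusted p = 0.0171).

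Klf3, a repressor that recruits the corepressor CtBP, was highest in estrus and lowest in diestrus. Its CPM was 152, 162 and 132 in proestrus, 181, 171 and 191 in estrus, 119.8, 97.2 and 132 in metestrus, and 88.2, 80.6 and 98.5 in diestrus. The estrus libraries lay above all others, and the metestrus and diestrus ranges overlapped. Klf3 was lower in diestrus than in estrus by a log2 difference of -1.03 ± 0.14 (edgeR adjusted p = 0.000314, stage F test adjusted p = 0.00113), a ratio of means of 0.492. It was lower in metestrus than in estrus (-0.64 ± 0.14, edgeR adjusted p = 0.0176), and proestrus exceeded diestrus by 0.74 ± 0.14 (edgeR adjusted p = 0.00600). The metestrus difference was lost without estrus replicate 5 (edgeR adjusted p = 0.0749) or metestrus replicate 6 (0.0725), and in a fit of those 2 stages alone (0.0852) and with counts scaled from TPM (0.0602). Klf3 overlaps C230096K16Rik on its own strand and Gm20033 on the other, so reads of these genes could be shared.

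Klf6, a widely expressed member known from tissue injury and as a tumour suppressor, was high in estrus. Its CPM was 91.3, 100.8 and 95.9 in proestrus, 187, 235 and 186 in estrus, 121, 104 and 156 in metestrus, and 112, 103 and 113 in diestrus. The 3 estrus libraries lay above the other 9, and proestrus lay below every other library. Mean CPM was 96.0 ± 4.77 in proestrus and 203 ± 28.1 in estrus (SD, n = 3 each), a 2.11-fold difference. Klf6 rose by 1.08 ± 0.16 on the log2 scale into estrus (edgeR adjusted p = 0.000903, stage F test adjusted p = 0.00103). Metestrus was lower than estrus by a log2 difference of -0.68 ± 0.15 (edgeR adjusted p = 0.0191), and diestrus by -0.89 ± 0.15 (edgeR adjusted p = 0.00133). The metestrus call was lost without estrus replicate 4 (edgeR adjusted p = 0.101) or metestrus replicate 6 (0.0787), and in a fit of those 2 stages alone (0.111).

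Klf10, known as an early gene of TGF-beta signalling, had its highest mean in estrus as well. Its CPM was 29.1, 42.6 and 25.9 in proestrus, 48.3, 58.3 and 39.8 in estrus, 35.8, 29.7 and 39.9 in metestrus, and 26.9, 37.1 and 24.9 in diestrus. The estrus range overlapped those of proestrus and metestrus and lay above that of diestrus. The stage F test did not call it (edgeR adjusted p = 0.100). Diestrus minus estrus was -0.71 ± 0.23 on the log2 scale (edgeR adjusted p = 0.0366). That call was lost without estrus replicate 3, estrus replicate 4, diestrus replicate 3 or diestrus replicate 5 (edgeR adjusted p up to 0.168), and with library totals in place of TMM factors (0.0535) or counts scaled from TPM (0.109).

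Klf2, known as a flow-induced factor of endothelial cells, was not called with all libraries, and like Klf15 it had a wide spread in metestrus. Its CPM was 16.5, 25.3 and 23.9 in proestrus, 27.8, 25.7 and 26.6 in estrus, 28.5, 25.9 and 104 in metestrus, and 35.9, 42.5 and 35.1 in diestrus. Diestrus lay above proestrus and estrus without overlap, and metestrus replicate 7 lay above every library. The SD of metestrus was 44.5 CPM around a mean of 52.9, compared with 1.06 around 26.7 in estrus (n = 3 each). The stage F test gave an edgeR adjusted p of 0.117. Without metestrus replicate 7, Klf2 was called in the F test (edgeR adjusted p = 0.0274). Diestrus then exceeded estrus by a log2 difference of 0.53 (edgeR adjusted p = 0.0463), and proestrus was below diestrus, with -0.79 (edgeR adjusted p = 0.0138). With all libraries, those differences were 0.50 ± 0.42 (edgeR adjusted p = 0.424) and -0.78 ± 0.43 (edgeR adjusted p = 0.315).

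By CPM, metestrus replicate 7 was the highest of the 12 libraries for Klf2, Klf9 and Klf15. By the deposited TPM this held for Klf2 and Klf15 alone. Klf9 was at 77.9 TPM there, below estrus replicate 4 (91.1) and metestrus replicate 5 (86.5). The TMM factor of metestrus replicate 7, 0.908, was the lowest of the libraries, which raises its CPM. Compared with the mean of the other 2 metestrus libraries, it was 3.84-fold higher for Klf2, 3.20-fold for Klf15 and 1.47-fold for Klf9. Klf4 and Klf13 were 0.855 and 0.946 times that mean. The same library was the highest of the 12 for 11.7% of all genes tested, with a range of 5.46 to 10.03% for the others, and 39 genes there were over 2 times the next library.

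Among 9 genes known to be induced by glucocorticoid or progestin, 4 were highest in metestrus replicate 7. These were Tsc22d3 (163 CPM, next library 60.8), Zbtb16 (56.6, next 33.6), Errfi1 (124, next 50.8) and Per1 (15.5, next 12.9). The other 5, Fkbp5, Sgk1, Cdkn1a, Mt1 and Mt2, were not highest there. Of 8 endothelial markers, 7 were highest in that library, and the exception was Pecam1, which made up 79.4 to 92.0% of their sum. The other 7 markers, a group formed after these values were seen, summed to 387 CPM there and to 134 to 259 CPM in the other 11 libraries. Klf2 as a percent of that sum of 7 was 27.0 in metestrus replicate 7 and 11.9 to 22.6 elsewhere. The part of these markers in the Klf2 value was not tested. Other marker lists were shifted in that library too. Of 7 macrophage markers 3 were highest there, as were 3 of 8 stromal markers (Dcn, Vim and Hoxa11) and 0 of 8 epithelial markers. The epithelial sum, 605 CPM, was the lowest of all libraries.

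**Figure D3:**
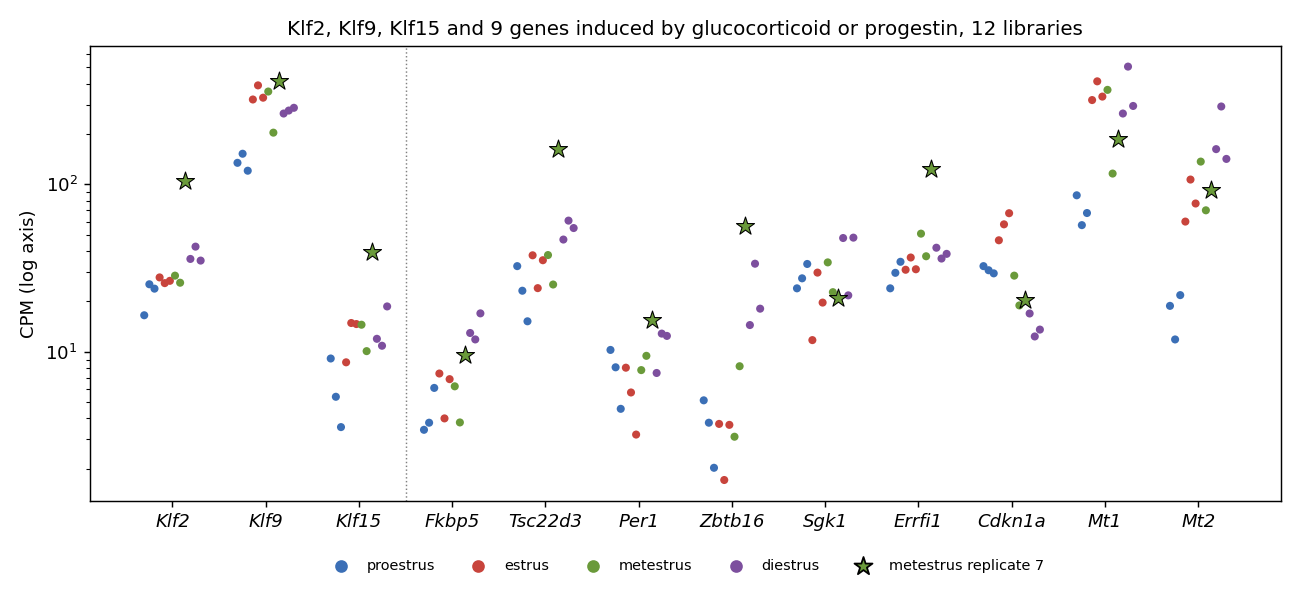
CPM on a log axis of Klf2, Klf9 and Klf15 and, right of the dotted line, of 9 genes induced by glucocorticoid or progestin, in the 12 libraries, coloured by stage. The star is metestrus replicate 7, which is the top point for Klf2, Klf9, Klf15, Tsc22d3, Per1, Zbtb16 and Errfi1.

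By stage contrast, the step from proestrus to estrus called 4 of the 9 genes, where 17.1% of all genes tested were called. The calls were 3 higher (Klf5, Klf6 and Klf9), beside 9.67% of all genes, and 1 lower (Klf4), beside 7.46%. The libraries of estrus and proestrus did not overlap for 5 genes that were higher in estrus, beside 20.9% of all genes, and for 1 that was lower, beside 18.1%. The median log2 difference of the 9 genes was 0.58, and that of all genes 0.02. From estrus to metestrus 2 genes were called (Klf3 and Klf6), where 7.56% of all genes were called. Both were lower, beside 4.73% of all genes, and none of the 9 was called higher, beside 2.83%. The groups did not overlap for 3 genes that were lower in metestrus, beside 14.3% of all genes. The median there was -0.47 for the 9 genes and 0.01 for all.

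From metestrus to diestrus edgeR called 0 of the 9, where it called 0.224% of all genes. At an unadjusted p under 0.05 there were 2, Klf4 and Klf3, and DESeq2 called 0 of the 9 as well. The groups did not overlap for 2 genes, Klf4 and Klf5, which were lower in diestrus, beside 7.15% of all genes. Between diestrus and proestrus 3 were called, where 8.53% of all genes were. Klf3 and Klf4 were higher in proestrus, beside 4.62% of all genes, and Klf9 was lower, beside 3.91%. The groups did not overlap for 2 genes that were higher in proestrus (15.8% of all genes) and 4 that were lower (14.9%).

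Diestrus compared with estrus called 5 of the 9, where 22.8% of all genes were called. Klf3, Klf4, Klf5, Klf6 and Klf10 were lower in diestrus, beside 13% of all genes, and none was called higher, beside 9.72%. The groups did not overlap for 6 genes that were lower (22.4% of all genes) and for Klf2, which was higher (20.6%). The median log2 difference was -0.71 for the 9 genes and 0.00 for all. Metestrus compared with proestrus called 2 genes, where 4.31% of all genes were called. Klf9 was higher, beside 2.49% of all genes, and Klf4 lower, beside 1.82%. The groups did not overlap for 4 genes that were higher in metestrus (11.5%) and 2 that were lower (11.8%). Among the 5481 genes with a mean of at least 50 counts, estrus against proestrus called 1457, metestrus against estrus 691 and diestrus against metestrus 29. Proestrus against diestrus called 670 of them, metestrus against proestrus 414 and diestrus against estrus 1811. The contrasts share libraries and are not independent of each other. In all, 6 genes were called in at least 1 contrast, and Klf2, Klf13 and Klf15 in none.

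**Figure D4:**
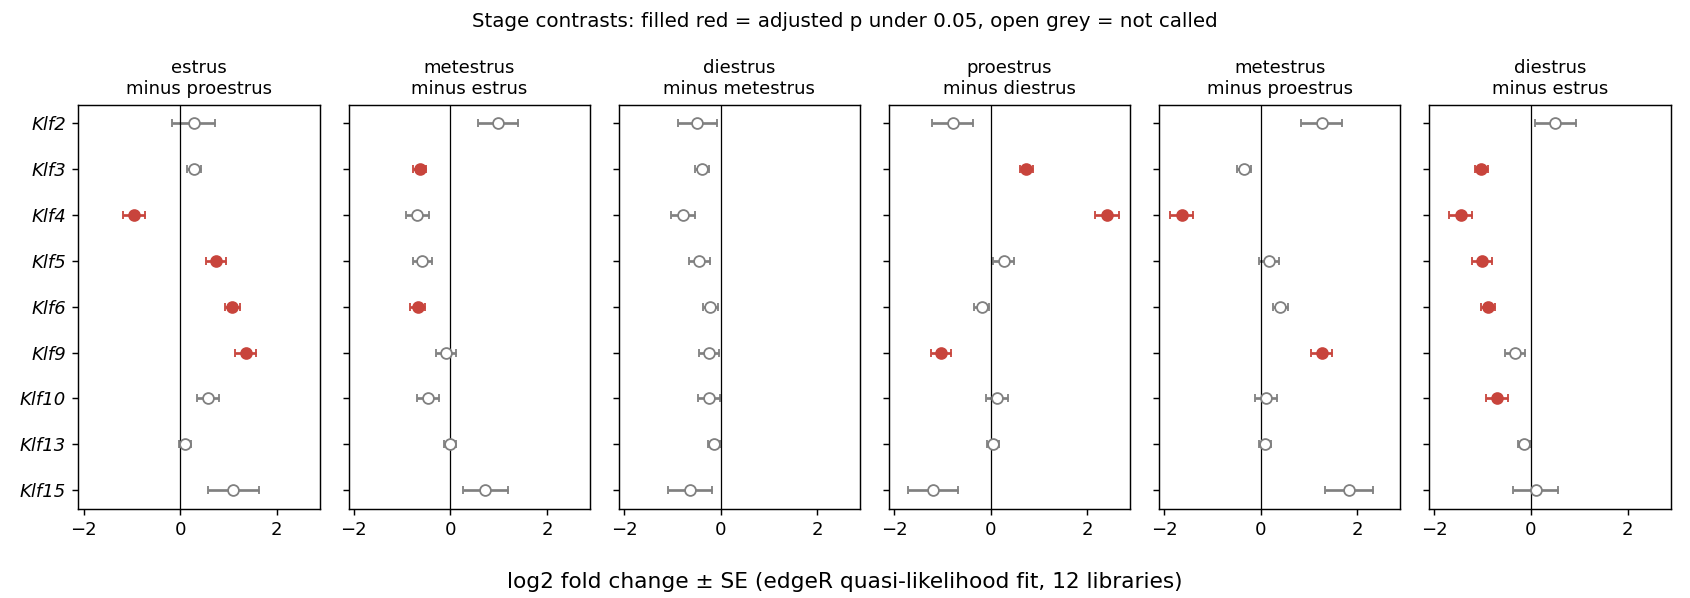
Log2 fold change with SE of the 9 genes in the 6 stage contrasts, from the edgeR fit of 12 libraries; filled red points had an adjusted p under 0.05 and open grey points did not. Klf4 lies left of 0 where Klf5, Klf6 and Klf9 lie right of it in estrus minus proestrus, and the 5 filled points of diestrus minus estrus all lie left of 0.

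The order of the genes by level differed between CPM and the deposited TPM. With 3′ TagSeq, read number depends little on length, so CPM is the scale used for levels here. By CPM, Klf4 ranked highest in proestrus and Klf9 in the other 3 stages, and Klf15 lowest in all 4. TPM divides counts by transcript length, which lowers the values of longer transcripts. By TPM, Klf4 was highest in proestrus at 163 ± 34.2 TPM. Klf10 was highest in the other stages, with 204 ± 54.2 TPM in estrus (SD, n = 3 each). Klf10 ranked no higher than 7 of 9 by CPM. Of its counts, 52.3% were assigned to Klf10-204, a transcript model of 326 bases, and dividing by so short a length gives a high TPM. In Klf13, 10.8% of counts were assigned to Klf13-204, of 487 bases. Klf9 reached 79.6 ± 9.998 TPM in estrus and Klf4 83.8 ± 17.8 TPM, means that differed by less than either SD. The main transcript model is 4486 bases for Klf9 and 3029 for Klf4, so division by length lowers Klf9 more. By CPM, Klf9 was above Klf4 in every estrus library.

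Little of the members' sequence is shared with other genes. At most 2.00% of the 31-base stretches of a member's transcripts occurred in transcripts of another gene, and for Klf4, with that share, those genes were Gm48640 and Sox4. Klf4 lies on GRCm38 chromosome 4 (55527143 to 55532466, minus strand), Klf9 on chromosome 19 (23141226 to 23168134, plus strand) and Klf6 on chromosome 13 (5861482 to 5870394, plus strand).

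Of 9 other Kruppel-like factor genes looked for, 8 were in the tables and 4 passed the filter on low counts. Klf7 and Klf11 were called in the F test. Klf7 was at 66.5 ± 3.92, 117 ± 8.38, 84.0 ± 15.9 and 67.5 ± 7.73 CPM from proestrus to diestrus (SD, n = 3 each). It rose by 0.82 ± 0.15 on the log2 scale into estrus (edgeR adjusted p = 0.00357, stage F test adjusted p = 0.00394). Klf11, an early gene of TGF-beta signalling like Klf10, was at 8.77 ± 0.868, 17.9 ± 2.87, 15.0 ± 4.29 and 10.1 ± 2.34 CPM. It rose by 1.03 ± 0.29 into estrus (edgeR adjusted p = 0.0254). Both were lower in diestrus than in estrus. The related SP genes, which bind GC boxes, gave 0 calls among 5 tested, with F test adjusted p from 0.237 for Sp4 to 0.738 for Sp1.

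Among 12 partners of the family (corepressors, deacetylases, acetyltransferases and ubiquitin ligases), 2 were called in the F test. Hdac2, a histone deacetylase of the Sin3 complex, was at 68.0 ± 6.60 CPM in proestrus, 46.6 ± 6.50 in estrus, 83.6 ± 4.06 in metestrus and 98.7 ± 9.57 in diestrus (edgeR adjusted p = 0.000826). It was lowest in the stage where Klf3, Klf5, Klf6 and Klf9 had their highest means. Crebbp, an acetyltransferase, rose by 0.51 ± 0.13 on the log2 scale into estrus (edgeR adjusted p = 0.0161). Of 4 steroid receptors tested, Pgr, the progesterone receptor, was called in the F test. It was at 258 ± 32.6 CPM in proestrus, 76.8 ± 4.88 in estrus, 196 ± 77.6 in metestrus and 214 ± 79.9 in diestrus (edgeR adjusted p = 0.00321). Pgr was lowest in estrus, where its partner Klf9 had its highest mean. From estrus, Pgr was higher in metestrus by 1.35 ± 0.28 (edgeR adjusted p = 0.0117) and in diestrus by 1.48 ± 0.28 (edgeR adjusted p = 0.00212). Klf9 was called in neither of these contrasts (edgeR adjusted p = 0.827 and 0.272).

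Of the 9 genes induced by glucocorticoid or progestin, 6 were called in the F test. The metallothionein Mt2 was at 17.5 ± 5.11 CPM in proestrus and 81.3 ± 23.8 in estrus, and rose by 2.21 ± 0.36 on the log2 scale (edgeR adjusted p = 0.00166). Mt1 rose by 2.34 ± 0.36 (edgeR adjusted p = 0.00127). Cdkn1a, a cell cycle inhibitor, rose by 0.89 ± 0.19 into estrus (edgeR adjusted p = 0.00751). Of 6 MCM helicase genes, which license DNA replication, 5 were called in the F test, and these 5 were lower in estrus than in proestrus. Mcm3 was at 34.0 ± 1.76 CPM in proestrus and 5.90 ± 0.450 in estrus, a log2 difference of -2.51 ± 0.23 (edgeR adjusted p = 6.74e-05). Mcm5 differed by -1.96 ± 0.33 (edgeR adjusted p = 0.00210) and Mcm2 by -1.77 ± 0.34 (edgeR adjusted p = 0.00403). The sixth gene, Mcm7, did not pass (-0.55 on the log2 scale, edgeR adjusted p = 0.153). The 5 called MCM genes and Klf4 were thus lower in estrus than in proestrus, and Klf5 and Klf9 higher. In diestrus the same 5 MCM genes were called higher than in estrus, whereas Klf4 was lower. For Mcm3 that difference was 1.83 ± 0.24 on the log2 scale (edgeR adjusted p = 0.000224).

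Of 5 genes tested of the MEK5, ERK5 and MEF2 pathway, which drives Klf2 in endothelium, 2 were called in the F test. Mef2c rose by 0.56 ± 0.13 on the log2 scale into estrus (edgeR adjusted p = 0.0124), and Mef2a was higher in metestrus than in proestrus by 0.92 ± 0.20 (edgeR adjusted p = 0.0238). Its highest library was metestrus replicate 7, at 168 CPM, compared with 107 and 86.5 in the other metestrus libraries and 61.0 to 65.2 in proestrus. Mapk7, which encodes ERK5, was not called in the F test (edgeR adjusted p = 0.102) but was higher in diestrus than in estrus by 1.08 ± 0.35 (edgeR adjusted p = 0.0402). Of 6 flow-associated endothelial genes only Edn1, the endothelin 1 gene, was called in the F test, with a rise of 2.01 ± 0.30 into estrus (edgeR adjusted p = 0.00108). Of 8 early TGF-beta genes tested, Skil alone was called in the F test, lower in diestrus than in estrus by a log2 difference of -1.09 ± 0.24 (edgeR adjusted p = 0.00539). Of 9 immediate early genes tested, Junb and Atf3 were called in the F test, and Jun was called between proestrus and estrus alone (0.81 ± 0.23, edgeR adjusted p = 0.0255). Atf3 rose by 1.65 ± 0.41 into estrus (edgeR adjusted p = 0.0151). Junb was lower in diestrus than in estrus, with -1.29 ± 0.27 (edgeR adjusted p = 0.00461).

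The genes nearest to each called member were found by the root mean square (RMS) difference of centred log2 CPM over the 12 libraries. For Klf9 they were Tyrobp (0.14), B2m (0.19) and Slc7a7 (0.20), and for Klf6 they were Irak3 (0.13), Fnbp1 (0.14) and Klf7 (0.15). Klf3 had Stim2 (0.13), Zfhx3 (0.13) and Pkp4 (0.15), and Klf5 had Nectin2 (0.15), Ube2h (0.18) and Insr (0.18). Klf4 had Perp (0.32), Galnt12 (0.34) and Ass1 (0.34), at larger distances than those of the other 4 genes. The distance is not scaled for a gene's range, which was widest for Klf4, so it does not compare the shapes of the courses. The mean of Perp, a desmosomal gene, was 81.9 CPM in proestrus and 15.2 in diestrus. The mean of Tyrobp, a myeloid signalling adaptor, was 37.0 CPM in proestrus and 85.2 in estrus. These distances are descriptions over libraries that share a stage.

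The libraries held 1652841 to 2200563 estimated counts, so that 3 counts, the limit that a count of 0 allows, came to 1.37 to 1.83 CPM. The members had 7 to 950 counts per library. The uterine identity of the tissue was checked on marker sums. Stromal markers summed to 6969 to 15262 CPM and smooth muscle markers to 5201 to 10592. Adipocyte markers summed to 0 to 9.13 CPM, those of squamous epithelium to 9.28 to 18.9 with Krt6a at 0, those of ovary to 10.1 to 26.5 with Zp3 at 0, and those of lymphocytes to 12.9 to 29.6. Markers of ciliated oviduct, at 52.4 to 304 CPM, and of red blood cells, at 163 to 1433, were highest in metestrus replicate 6, and neutrophil markers ranged from 9.54 to 75.5. In metestrus replicate 6, 272 of the 304 CPM of oviduct markers were Tppp3. Ovgp1 was at 25.2 CPM there, compared with 6.74 and 11.3 in the other metestrus libraries and 39.8 to 48.9 in estrus. Foxj1, a defining gene of ciliated cells, was at 0 there. As it reached at most 2.03 CPM in any library, this 0 cannot tell whether oviduct tissue was present, which was not tested. The part of metestrus replicate 6 in the calls was measured by leaving it out, and those results stand beside Klf3 and Klf6.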

How the data were processed

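The authors deposited, per the file headers, estimated counts and TPM per transcript, from 12 libraries of mouse uterus made by 3′ TagSeq. kallisto, DESeq2 and FastQC are named in the submitters' processing notes. The transcript set and strand setting are not given in the sources used here. Transcript versions were stripped, transcripts were matched to GENCODE M21 (GRCm38), and estimated counts were summed per gene and rounded to whole numbers. Unmatched transcripts held 0.619 to 0.774% of counts.

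Genes were filtered with edgeR's filterByExpr, leaving 12052. TMM factors were 0.908 to 1.05. A quasi-likelihood model with a mean per stage (edgeR 4.0.16, R 4.3.3) gave an F test over the 4 stages and 6 contrasts. P-values were adjusted by Benjamini-Hochberg over all genes tested, with calls at 0.05. CPM used TMM-scaled library sizes, and log2 CPM a prior count of 2. The code was tested on simulated data. DESeq2 1.42.0, other scalings and filters, fits of 2 stages and leaving out each library were alternatives. Floors cover counting error only, whereas SD and SE include the spread between libraries. No 2 libraries held identical values.

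The members and gene lists were chosen with earlier results of these data known. All 9 members are named. Other KLF or SP genes are named where the F test called them, and up to 3 called genes with the smallest p of each other list. Promoter windows came from RefSeq (GRCm38.p6), which held 7 of the 9 members.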

Additional observations from a re-analysis of the deposited data

How the results depend on the processing

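No alternative reversed a called difference of the 9 genes. The 5 F test calls became 6 with DESeq2 and 7 with no filter on low counts, and ranged from 4 to 7 when each library was left out. Estrus against proestrus called 4, and 2 to 4 with a library left out, with 2 without proestrus replicate 1 or estrus replicate 4. Metestrus against estrus called 2. It called 1 with counts scaled from TPM, 0 in a fit of those 2 stages alone, and 0 to 3 with a library left out, 0 without metestrus replicate 6. Metestrus against proestrus called 2. It called 4 with no filter on low counts, 1 in a fit of those 2 stages alone, where Klf9 was lost (edgeR adjusted p = 0.0654), and 2 to 4 with a library left out, 4 without metestrus replicate 5 or 6. Proestrus against diestrus called 3 to 4, diestrus against estrus 4 to 6 and diestrus against metestrus 0 with a library left out. The cause was not tested. Klf2 was called in the F test without metestrus replicate 5 (edgeR adjusted p = 0.0311), 6 (0.0268) or 7 (0.0274) and with no filter (0.00954). Klf15 was called with DESeq2 (0.0364), with no filter (0.0119) and without metestrus replicate 5 (0.0498) or 6 (0.0236). Under no scaling did the median of all genes lie more than 0.07 from 0 on the log2 scale. For diestrus minus metestrus it went from -0.02 to 0.07 with library totals in place of TMM factors. Over all genes, diestrus against metestrus called 27 with edgeR, 148 with DESeq2, 256 with no filter and 0 with counts scaled from TPM. Depth limits Klf15 most, at 7 to 66 counts per library.

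Estrus and diestrus share replicate numbers 3, 4 and 5. Same-numbered libraries did not deviate together (correlations -0.043, 0.013 and -0.017), and not every library correlated best with its own number, so the numbers were not taken as pairs. With the replicate number as a block in those 6 libraries, 5 members were called, namely Klf3, Klf4, Klf5, Klf6 and Klf10, and 2935 genes in all. Without the block 6 were called, with Klf2 added (log2 0.51, edgeR adjusted p = 0.0391), and 3242 genes in all.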
